A study of Homo sapiens with 6 samples.

Results

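The genes described here are those whose level in RNA-Seq of SW480 cells moved to the same side in every library with PCYT2 knockdown. All 4 knockdown libraries (2 with the hairpin shPcyt2-1 and 2 with the hairpin shPcyt2-2) had to lie above both libraries with the nontargeting hairpin shNT, or below both. Among 7616 genes with a mean level of at least 5 FPKM over the 6 libraries, of 19437 genes listed in any library, 2569 met that rule (33.7% of the genes), 1740 above shNT (22.8%) and 829 below (10.9%). FPKM stands for fragments per kilobase of transcript, scaled to a fixed number of fragments per library, a level that takes account of gene length and library size. The tables do not name their unit. The values were read as FPKM from their range, and TPM, the level as a share of all transcripts, over part of the genes could not be told apart from it. The rule used these values, so the side itself is a description and not a test.

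SW480 is an established line of human colorectal cancer cells. The PCYT2 hairpins were brought in by lentivirus and the infected cells were selected with puromycin, and whether the shNT cells were infected and selected in the same way is not stated in the sources used here. Each group (shNT, shPcyt2-1 and shPcyt2-2) had 2 libraries, and no label says whether the 2 came from separate cultures, so the spread between them may be technical. Both hairpins were compared with the same 2 shNT libraries, so anything particular to the shNT cells moved both comparisons at once and cannot be told apart from a change common to both hairpins. The labels name 2 library kits (NEBNext Ultra and SMARTer mRNA-Seq) for each sample without assigning them. The deposited values sum to between 396467 and 402612 FPKM per library, and the number of reads behind them is unknown.

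PCYT2 is the enzyme that makes CDP-ethanolamine, the middle step of the branch of the Kennedy pathway that builds phosphatidylethanolamine (PE). ETNK1 and ETNK2 phosphorylate ethanolamine before it, and SELENOI and CEPT1 join CDP-ethanolamine to diacylglycerol after it. Mitochondria make PE by another route, from phosphatidylserine, with the decarboxylase PISD, and PEMT methylates PE to phosphatidylcholine. PE is abundant in the membranes of the endoplasmic reticulum and mitochondria and on the inner side of the plasma membrane, where flippases hold it.

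PCYT2 (chromosome 17, 81900965 to 81911464, GRCh38), the target of both hairpins, was itself among the genes below shNT. Its level was 11.6 and 13.8 FPKM in the shNT libraries, 7.11 and 7.36 with shPcyt2-1, and 6.71 and 6.18 with shPcyt2-2. Every knockdown library was below both shNT libraries, and the groups did not overlap. On the log2(FPKM + 1) scale, which is used for all log2 fold changes here, it fell by 0.73 with shPcyt2-1 (standard error 0.10, limma adjusted p = 0.00202) and by 0.88 with shPcyt2-2 (standard error 0.10, adjusted p = 0.00257). Markers of the line were present in every library. EPCAM lay between 257.9 and 312 FPKM, and the keratin KRT8 between 2734 and 3861. KRT8 and KRT18 were lower in the shPcyt2-2 libraries than in all others, and CDX2, a transcription factor of intestinal epithelium, was lower in the shPcyt2-1 libraries (10.01 and 9.88 FPKM) than in the other 4, where it lay between 15.1 and 16.9. Markers of other cell types were low, with a summed level of at most 4.10 FPKM for 6 fibroblast genes (COL3A1 at 0 in every library, LUM the most abundant at up to 2.24) and at most 0.769 for 4 endothelial genes. The sum of 6 leukocyte genes lay between 19.1 and 25.5 FPKM, nearly all of it from the lysosomal protein gene CD68 (15.99 to 22.7), with PTPRC at 0 in every library.

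The shared changes were small. The median log2 fold change of the 1740 genes above shNT was 0.27 with shPcyt2-1 and 0.24 with shPcyt2-2, and that of the 829 genes below was -0.24 and -0.22. Over all 7616 genes the medians were 0.07 and 0.04. Taking for each gene the smaller of its 2 hairpin changes, 548 genes above and 184 below reached 0.25 on the log2 scale, 45 and 16 reached 0.5, and none reached 1. The largest such value was 0.77 among genes above and 0.98 among genes below.

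In the fit across all genes, 328 of the 7616 genes were called higher with both hairpins (4.31%) and 133 lower with both (1.75%), at an adjusted p under 0.05 in limma with Benjamini-Hochberg adjustment, and 100 genes were called with both in opposite directions (1.31%). All 461 genes called in 1 direction with both hairpins were among the separated genes. Genes described below as having risen or fallen were called in this way with both hairpins. The remaining 2108 separated genes missed the threshold with 1 or both hairpins. shPcyt2-1 called 2413 genes (31.7%, with 20.2% higher and 11.5% lower) and shPcyt2-2 called 1250 (16.4%, with 9.56% higher and 6.85% lower). When the 4 knockdown libraries were pooled into 1 group against shNT, none of the 7616 genes (0%) passed in limma, with 1503 at an unadjusted p under 0.05 (19.7%). These counts leaned on single libraries. Without replicate 1 of shPcyt2-2, 16 genes were called higher and 19 lower with both hairpins, without replicate 2 of shNT 60 and 36, and without replicate 1 of shNT 474 and 263.

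Genes above shNT had a low share of G and C bases and genes below had a high one. The median GC content of the annotated transcripts was 45.4% for genes above, 59.8% for genes below and 53.4% for genes on neither side. Genes were cut into 5 groups of equal size by GC content. In the group with the lowest GC content (31.97% to 43.6%), 42.7% lay above shNT and 1.05% below. In the group with the highest (60.1% to 76.8%), 2.10% lay above and 26.0% below. No such gradient appeared with transcript length, where the share above was 23.6% in the shortest of 5 groups and 25.6% in the longest. The libraries themselves differed along GC content. The median deviation from the gene's mean over the 6 libraries was higher in the GC-richest than in the GC-poorest group by 0.372 (log2) in replicate 2 of shNT and by 0.0667 in replicate 1. In the knockdown libraries the difference was -0.142 and -0.0604 with shPcyt2-1, and -0.181 and -0.0497 with shPcyt2-2. In this gradient the knockdown libraries thus all stood under the shNT libraries, and replicate 2 of shNT stood farthest from the rest.

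**Figure D1:**
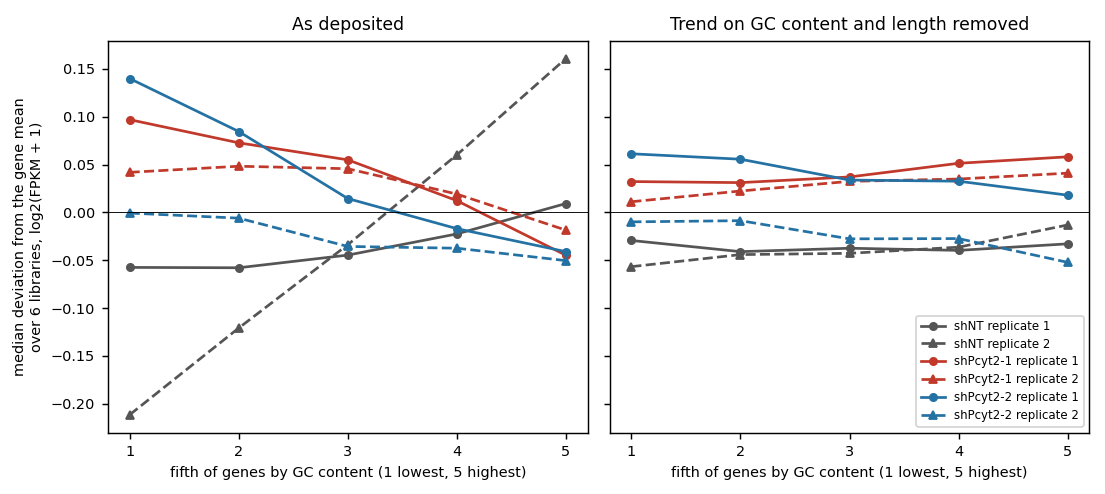
Median deviation of each library from the gene's mean over 6 libraries (y axis, log2(FPKM + 1)) for 5 equal groups of genes ordered by GC content (x axis), as deposited (left) and with the trend along GC content and length taken out of each library (right). Each line is 1 library. As deposited, replicate 2 of shNT climbs from -0.211 to 0.161, while all 4 knockdown lines slope down.

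The part of this gradient in the side of any 1 gene was not tested, but the sides were counted again under other scalings. With the trend on GC content and length removed from each library, 1705 genes lay above both shNT libraries (22.4%) and 570 below (7.48%), and 1263 of the 1740 and 419 of the 829 genes kept their side. Median-ratio scaling of the libraries lowered the median change of all genes by 0.075 with shPcyt2-1 and by 0.051 with shPcyt2-2. Under it 1199 lay above (15.7%) and 1307 below (17.2%). The excess of higher genes thus held only in the values as deposited and after the GC correction. That correction left the overall level of each library in place, whereas median-ratio scaling evened it out, so this outcome follows from the methods. In all, 995 genes above and 419 below kept their side under both. Of the genes called with both hairpins, 324 of 328 and 120 of 133 did so. Median-ratio scaling lowered every knockdown library relative to both shNT libraries, so no gene below could lose its side under it. For genes below, a kept side thus rests on the GC correction alone. Sizes changed as well, and 46 of the 135 named genes on one side of shNT had a change more than 1.5 times smaller with at least 1 hairpin after removal of the GC trend. Among genes said below to have risen, these included MSMO1, LBR, NRAS, RAB18, MOB4, STK26, KPNA3, BUB1 and ACTR3. Among those that fell they included HR, ETV4, S100A6, TFF3, AGPAT2, RPL8, ZNF593, ZNF787 and ZNF282. In what follows, a gene said to have kept its side did so under both corrections.

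The 15 protein-coding genes with the largest shared rise all kept their side. They include genes of DNA replication, iron uptake, lysosomes and nuclear import. GINS1, a subunit of the GINS complex of the replicative helicase, was at 7.05 and 6.53 FPKM in shNT, 12.2 and 12.5 with shPcyt2-1, and 12.99 and 10.8 with shPcyt2-2. It rose by 0.78 and 0.72 (standard error 0.10 each, adjusted p = 0.00158 and 0.00534). The transferrin receptor TFRC, which brings iron into cells, was at 57.2 and 54.5 FPKM in shNT, 91.3 and 87.0 with shPcyt2-1, and 95.5 and 82.1 with shPcyt2-2. Every knockdown library was well above both shNT libraries, and the changes were 0.67 and 0.66. The metal transporter SLC11A2, which moves iron out of endosomes, was at 4.86 and 4.95 FPKM in shNT and between 7.14 and 9.04 in the 4 knockdown libraries, with changes of 0.61 and 0.63.

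LAMP2, a major protein of the lysosomal membrane, was at 14.03 and 12.5 FPKM in shNT, 22.1 and 20.6 with shPcyt2-1, and 23.4 and 19.3 with shPcyt2-2, a change of 0.65 with each hairpin (adjusted p = 0.00354 and 0.00822). The nuclear import receptor TNPO1 was at 11.1 and 9.74 FPKM in shNT and between 15.8 and 19.0 with knockdown (0.68 and 0.63), and the nucleoporin NUP35 went from 9.07 and 7.24 to between 12.2 and 14.2 (0.64 and 0.61). In both genes the lowest knockdown library was well above the higher shNT library.

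Further genes of this group were the tetraspanin TSPAN7 (4.39 and 3.48 FPKM in shNT, 6.49 to 8.08 with knockdown), the RNA-binding autoantigen RO60 (4.02 and 3.68, then 5.79 to 7.55), JKAMP (4.53 and 3.24, then 6.25 to 7.21), the bicarbonate cotransporter SLC4A7 (3.47 and 2.94, then 5.13 to 6.77), the pyruvate dehydrogenase phosphatase PDP1 (9.88 and 9.70, then 14.5 to 16.7) and the actin bundler PLS1 (9.98 and 8.53, then 13.7 to 15.8). Among these 15 genes MT1E had the largest change with shPcyt2-2. This metallothionein, a small protein that binds zinc and copper, was at 27.5 and 19.4 FPKM in shNT, 36.6 and 44.0 with shPcyt2-1, and 39.9 and 53.5 with shPcyt2-2 (0.77 and 0.97, standard error 0.17). Its reads may be shared with near-identical metallothionein genes, so its value is uncertain.

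Among the 15 protein-coding genes with the largest shared fall, PCYT2 ranked behind only UPK3BL1, and 14 of the 15 were called with both hairpins. UPK3BL1 was at 29.7 and 36.0 FPKM in shNT, 10.9 and 23.3 with shPcyt2-1, and 7.96 and 10.8 with shPcyt2-2 (-0.98 and -1.71, standard error 0.28), but it has near-identical copies and its level is uncertain. ERRFI1, a feedback inhibitor of the EGF receptor, was at 11.96 and 10.4 FPKM in shNT, 6.06 and 6.45 with shPcyt2-1, and 6.16 and 6.69 with shPcyt2-2. It fell by 0.75 and 0.71 (standard error 0.10, adjusted p = 0.00169 and 0.00515), with all knockdown values close together. RARG, a nuclear receptor for retinoic acid, was at 7.49 and 7.62 FPKM in shNT and between 4.23 and 4.58 with knockdown (-0.65 and -0.66). EPAS1, the hypoxia-inducible factor HIF-2alpha, was at 8.28 and 9.31 FPKM in shNT and between 5.07 and 5.90 with knockdown (-0.62 and -0.54), and NDUFA4L2, a mitochondrial protein known to be induced by hypoxia, went from 17.2 and 17.8 to between 10.6 and 12.2 (-0.58 and -0.59).

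POLR3GL, a subunit of RNA polymerase III, and PPP1R14B, an inhibitor of protein phosphatase 1, fell with both hairpins but by different amounts. POLR3GL was at 15.8 and 17.1 FPKM in shNT, 10.2 and 9.70 with shPcyt2-1, and 7.39 and 7.15 with shPcyt2-2. PPP1R14B was at 290 and 316 FPKM in shNT, 206 and 222 with shPcyt2-1, and 151 and 157 with shPcyt2-2. In both genes the 3 groups did not overlap. The difference between the hairpins was -0.41 for POLR3GL (adjusted p = 0.00787) and -0.47 for PPP1R14B (adjusted p = 0.00121). The others were C11orf96 (8.62 and 10.4 FPKM in shNT, 4.03 to 6.18 with knockdown), the intestinal mucosal gene PHGR1 (27.8 and 31.4, then 16.6 to 21.5), the GTPase gene RABL6 (58.4 and 66.7, then 37.7 to 43.3), the chemokine CXCL16 (20.8 and 20.7, then 13.6 to 14.6), the histone demethylase gene HR (22.4 and 26.3, then 14.2 to 16.8), the non-muscle myosin MYH14 (49.6 and 56.7, then 31.8 to 38.2) and the prefoldin subunit PFDN6 (10.2 and 19.2, then 8.11 to 8.82). PFDN6 was not called with either hairpin (adjusted p = 0.0534 and 0.0698), its shNT libraries differed by more than the shift, and its value combines identical copies on alternative haplotypes. The 15 genes had a GC content of between 49.6% and 68.9%.

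**Figure D2:**
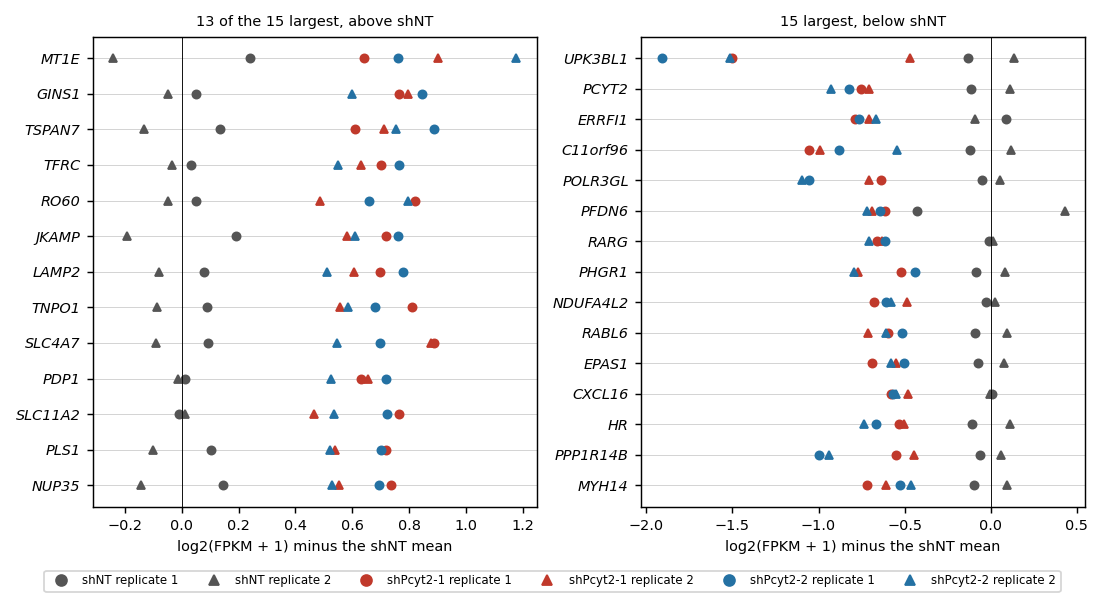
Level of each library, as log2(FPKM + 1) minus the mean of the shNT libraries (x axis), for 13 of the 15 protein-coding genes with the largest shared change above shNT (left) and all 15 below (right). Each symbol is 1 library. The knockdown symbols sit on one side of both shNT symbols in every gene, with a narrow margin for PFDN6, whose shNT libraries lie far apart.

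By pathway and family, 58 lists of genes held at least 5 genes with a mean of at least 5 FPKM. In 42 of them more genes lay above shNT than below, in 13 more lay below, and in 3 the counts were equal (45, 9 and 4 lists after removal of the GC trend, and 27, 25 and 6 with median-ratio scaling), beside a background of 22.8% above and 10.9% below over all genes. Of these lists 27 are described, with the median GC content of each list beside its counts, since the side moved with it.

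**Figure D3:**
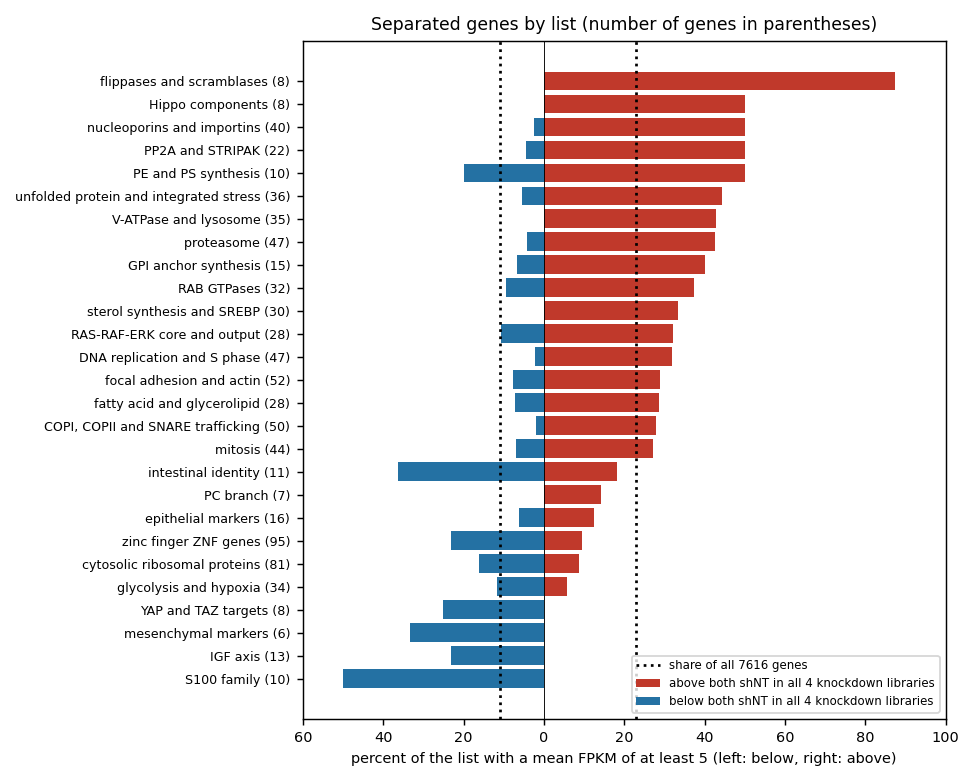
Share of the genes of each list (percent, x axis) that lay above (right) or below (left) both shNT libraries in all 4 knockdown libraries. The number of genes is in parentheses, and dotted lines give the share of all 7616 genes. Flippases and scramblases reach 87.5% above, and the S100 family 50.0% below with none above.

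The enzymes of PE and phosphatidylserine metabolism moved both ways. Of 10 genes, 5 lay above and 2 below (median GC content 50.8%), with 3 and 2 after removal of the GC trend and 4 and 3 with median-ratio scaling. The kinase ETNK1, one step before PCYT2, was at 13.9 and 12.4 FPKM in shNT, 19.5 and 18.4 with shPcyt2-1, and 20.6 and 17.6 with shPcyt2-2. It rose by 0.50 with each hairpin (standard error 0.10, adjusted p = 0.00732 and 0.0147), opposite to PCYT2. LPCAT3, which places polyunsaturated chains into lysophospholipids, rose as well, from 17.1 in both shNT libraries to 23.1 and 22.8 with shPcyt2-1 and 23.4 and 19.9 with shPcyt2-2 (0.40 and 0.32). The final enzymes of the branch lay above shNT by less. CEPT1 was at 9.96 and 8.40 FPKM in shNT and between 10.3 and 11.9 with knockdown (0.32 and 0.25), and SELENOI at 10 and 8.46, then 10.05 to 11.7 (0.29 and 0.21), neither called with both hairpins and neither on its side after removal of the GC trend. PEMT fell, from 32.5 and 34.0 FPKM to 28.8 and 26.4 with shPcyt2-1 and 21.9 and 22.6 with shPcyt2-2 (-0.26 and -0.56). Its hairpins differed by -0.30 (adjusted p = 0.016), and its side was lost after the GC correction. In the branch that makes phosphatidylcholine from choline, 1 of 7 genes lay above and none below (median GC content 48.1%), and after removal of the GC trend none and 1, with 1 each way under median-ratio scaling. The gene above, the choline transporter SLC44A1, was at 7.09 and 6.77 FPKM in shNT and between 7.37 and 8.83 with knockdown, called with neither hairpin, and lost its side after the GC correction.

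Flippases and scramblases, which move lipids between the leaflets of a membrane, lay above shNT in 7 of 8 genes and below in none (median GC content 43.8%). After removal of the GC trend 5 remained above, and with median-ratio scaling 6. The median change of the list was 0.27 and 0.33. ATP11A, a flippase of the plasma membrane for PE and phosphatidylserine, was at 14.2 and 14.4 FPKM in shNT, 18.9 in both libraries with shPcyt2-1, and 18.8 and 18.4 with shPcyt2-2. It rose by 0.38 and 0.35 (standard error 0.07, adjusted p = 0.00659 and 0.0169). ATP9A rose by 0.26 and 0.30, from 14.98 and 15.7 FPKM to between 17.9 and 20.3. Those 2 were the list's only genes called with both hairpins. The scramblase ANO6 was at 7.90 and 7.48 FPKM in shNT and between 9.26 and 11.2 with knockdown (0.29 and 0.37), and TMEM30A, the partner subunit of the P4-ATPase flippases, at 10.5 and 10.3, then 11.99 to 15.5 (0.28 and 0.36). TMEM30A lost its side after the GC correction.

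**Figure D4:**
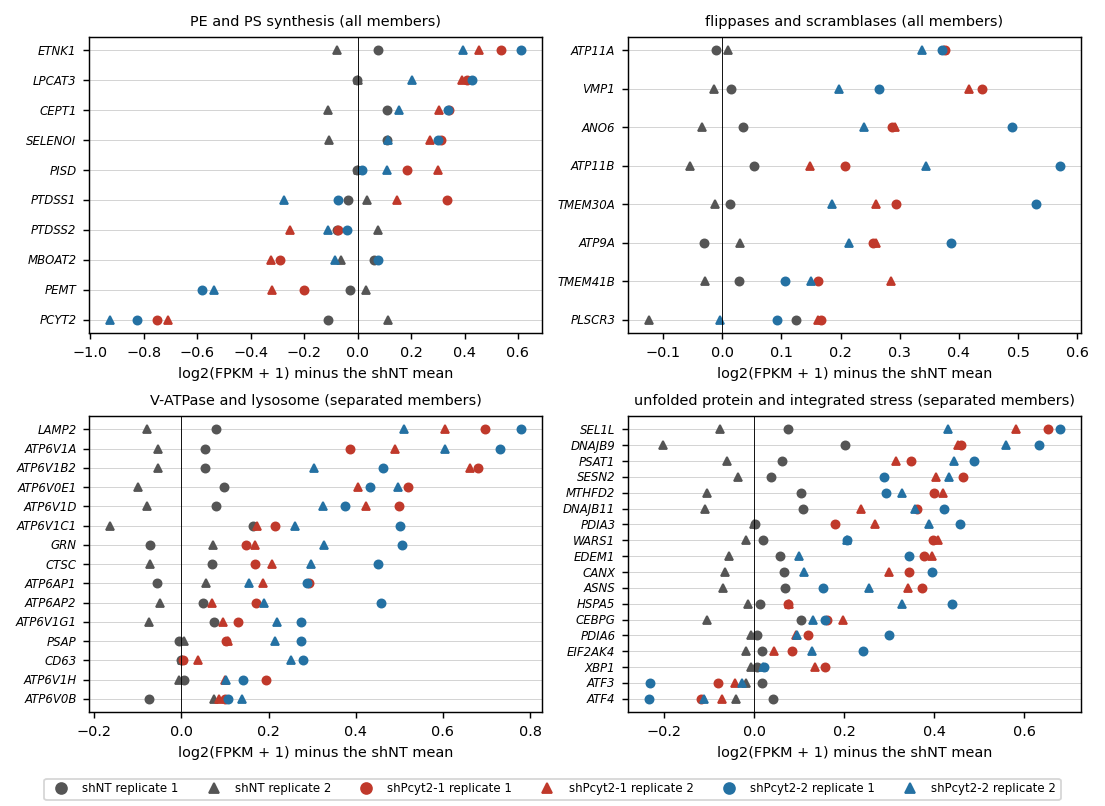
Level of each library, as log2(FPKM + 1) minus the mean of the shNT libraries (x axis), for genes of 4 lists that averaged at least 5 FPKM. The upper panels hold all genes of the list, the lower panels those on one side of both shNT libraries. ETNK1 and PCYT2 stand at opposite ends of the first panel, and in the lysosome panel every gene lies to the right.

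Sterol synthesis had 10 of 30 genes above shNT and none below (median GC content 51.4%, close to the 51.9% of all genes). After removal of the GC trend 12 lay above and none below, and with median-ratio scaling 7 and none. MSMO1, a demethylase of the later steps to cholesterol, was at 14.4 and 9.95 FPKM in shNT, 17.0 and 17.1 with shPcyt2-1, and 21.4 and 25.9 with shPcyt2-2. LBR, a sterol reductase of the nuclear envelope, went from 19.5 and 16.3 to 22.6 and 22.8 and to 29.4 and 26.3. In both genes the knockdown groups lay above shNT and shPcyt2-2 above shPcyt2-1. They rose by 0.47 and 0.92 (MSMO1) and 0.33 and 0.62 (LBR), and the differences between the hairpins did not pass (adjusted p = 0.0534 and 0.055). ACAT2, which makes acetoacetyl-CoA, was called with shPcyt2-1 only (0.36 and 0.30).

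Of 28 genes of fatty acid and glycerolipid metabolism, 8 lay above and 2 below (median GC content 51.7%), with 10 and 2 after removal of the GC trend and 7 and 4 with median-ratio scaling. The 2 below both fell. ACADVL, which starts the oxidation of very long chains in mitochondria, went from 155 and 164 FPKM to between 122 and 132 (-0.35 and -0.29), and AGPAT2, an acyltransferase that makes phosphatidic acid, from 158 and 174 to between 128 and 144 (-0.36 and -0.29, and -0.13 with each hairpin after removal of the GC trend). The acyl-CoA synthetases ACSL4 (15.9 and 12.4 FPKM in shNT, 16.9 to 19.1 with knockdown) and ACSL3 (6.31 and 5.68, then 6.85 to 8.25) lay above, neither called with both hairpins. The GPI anchor, which takes its phosphoethanolamine bridges from PE, had 6 of 15 synthesis genes above and 1 below (median GC content 55.5%; 5 and none after removal of the GC trend, 5 and 1 with median-ratio scaling), none of them called with both hairpins. All 9 of its called genes were higher with shPcyt2-1. PIGT, a subunit of the transamidase that attaches the anchor, was at 53.8 and 56.4 FPKM in shNT, 74.2 and 72.3 with shPcyt2-1, and 66.7 and 61.2 with shPcyt2-2 (0.41 and 0.21). PIGF, needed to add phosphoethanolamine, was at 8.42 and 7.66 FPKM in shNT, then 13.3 and 11.7, and 9.44 and 10.6 (0.58 and 0.28). In both genes the shPcyt2-2 libraries lay between the other groups. PIGS changed by 0.38 and 0.23 and PIGU by 0.36 and 0.23.

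Genes of the vacuolar ATPase, the proton pump of lysosomes, and of lysosomes in general lay above shNT in 15 of 35 cases and below in none (median GC content 51.2%). The count was 15 and none after removal of the GC trend, and 9 and none with median-ratio scaling. The list's median change was 0.19 with shPcyt2-1 and 0.22 with shPcyt2-2, beside 0.07 and 0.04 for all genes, and 5 genes rose, 15 being called higher with shPcyt2-1 and 12 with shPcyt2-2. The hairpins differed in 19 of the 35 genes, beside 31.6% of all genes. ATP6V1A, the catalytic subunit of the pump, was at 16.8 and 15.5 FPKM in shNT, 21.4 and 23.01 with shPcyt2-1, and 27.4 and 25.02 with shPcyt2-2 (0.44 and 0.67, adjusted p = 0.00631 and 0.00314). ATP6V1B2, a subunit of the same head domain, was at 19.3 and 17.8 FPKM in shNT, 30.3 and 29.9 with shPcyt2-1, and 25.9 and 23.1 with shPcyt2-2 (0.67 and 0.38). The order of the hairpins was thus opposite in these subunits, and for ATP6V1B2 the difference passed (-0.29, adjusted p = 0.0275). ATP6V0E1, of the membrane domain, rose by 0.46 with each, from 35.8 and 31.1 FPKM to between 44.5 and 48.3.

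Small GTPases of the RAB family, which direct vesicles, had 12 of 32 genes above and 3 below (median GC content 49.8%), with 9 and none after removal of the GC trend and 11 and 6 with median-ratio scaling. RAB18, of lipid droplets, went from 4.597 and 3.90 FPKM to between 5.77 and 6.53 (0.41 and 0.52). RAB11A, of recycling endosomes, went from 21.9 and 19.3 to between 25.7 and 28.2 (0.43 and 0.32), and RAB5B, of early endosomes, from 15.4 and 14.9 to between 18.5 and 23.2 (0.29 and 0.54). These 3 rose, while RAB2B (5.37 and 5.27 FPKM in shNT, 6.64 to 9.63 with knockdown) was called with shPcyt2-1 only (0.67 and 0.32). Coat and SNARE genes of transport between the endoplasmic reticulum and Golgi had 14 of 50 genes above and 1 below (median GC content 47.6%), with 12 and 1 after removal of the GC trend and 10 and 2 with median-ratio scaling. Of the 4 with the largest values only the endosomal SNARE STX12 was called with both hairpins (5.17 and 4.96 FPKM in shNT, 6.48 to 7.502 with knockdown). SEC22B, which lost its side after the GC correction, changed by 0.42 and 0.28, SEC24B by 0.30 and 0.28, and SAR1B by 0.31 and 0.27.

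The unfolded protein and integrated stress responses are signalling pathways that raise chaperone, degradation and amino acid genes when protein folding or supply fails. Of 36 genes 16 lay above and 2 below (median GC content 50.4%), with 13 and 1 after removal of the GC trend and 11 and 2 with median-ratio scaling, and 8 rose with both hairpins. SEL1L, of the complex that exports misfolded proteins from the endoplasmic reticulum, was at 10.5 and 9.35 FPKM in shNT, 16.1 and 15.3 with shPcyt2-1, and 16.4 and 13.7 with shPcyt2-2. It rose by 0.62 and 0.55 (standard error 0.10, adjusted p = 0.004 and 0.0132). The co-chaperone DNAJB9 went from 4.77 and 3.36 FPKM to between 5.86 and 6.78 (0.46 and 0.60). PSAT1, of serine synthesis, rose from 115 and 106 FPKM to 141 and 138 with shPcyt2-1 and 155 and 150.5 with shPcyt2-2 (0.33 and 0.47), and the stress sensor SESN2 from 5.46 and 5.14 to between 6.70 and 7.69 (0.43 and 0.36). Among transcription factors of the response, XBP1 lay above shNT by little (values below) and ATF4 and ATF3 did not. ATF4 was at 403 and 380.2 FPKM in shNT and between 332 and 372 with knockdown (-0.10 and -0.17), and ATF3 at 11.6 and 11.2, then 9.56 to 11.2 (-0.06 and -0.13), both below shNT and called with neither hairpin, and ATF4 lost its side after the GC correction.

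Some promoters of this list hold the element through which ATF6 and XBP1 act, the ER stress response element, which reads CCAAT, 9 bases of any kind and CCACG. It was searched on both strands in the 250 bases before each start site of RefSeq (GRCh38.p14). Of 6269 genes at a mean of 5 FPKM or more that have a promoter entry, 10 held it (0.16%). It was found in 4 of 1461 genes above shNT (0.274%), none of 658 below, and 7 of 33 genes of the list. A window for each of the 7 is shown (in HSP90B1 the first of 2 matches) to set the genes that lay above shNT beside those that did not, on the strand of the gene, with the 2 arms of the element (or of its reverse complement, with arms CGTGG and ATTGG) in capitals.
HSPA5 (chr9:125241386-125241414, minus strand): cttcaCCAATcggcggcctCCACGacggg
XBP1 (chr22:28800598-28800626, minus strand): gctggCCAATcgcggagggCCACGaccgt
CANX (chr5:179698773-179698801, plus strand): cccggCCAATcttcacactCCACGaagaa
PDIA6 (chr2:10812848-10812876, minus strand): ccggaCCAATgagccgcagCCACGgcttg
HSP90B1 (chr12:103930211-103930239, plus strand): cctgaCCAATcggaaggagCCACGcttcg
CALR (chr19:12938379-12938407, plus strand): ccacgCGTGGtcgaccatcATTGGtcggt
CRELD2 (chr22:49918549-49918577, plus strand): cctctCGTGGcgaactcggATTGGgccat

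The first 4 genes lay above shNT and the last 3 on neither side, so genes with the same element did not share a side. HSPA5, the main chaperone of the endoplasmic reticulum, was at 97.2 and 95.3 FPKM in shNT, 101.5 and 101.6 with shPcyt2-1, and 131 and 121 with shPcyt2-2 (0.08 and 0.38, called with shPcyt2-2 only). Its hairpins differed by 0.31 (adjusted p = 0.00631). The chaperone CANX was at 60.7 and 55.4 FPKM in shNT and between 62.7 and 76.5 with knockdown (0.32 and 0.25), and the disulfide isomerase PDIA6 at 111 and 110.4, then 118 to 137 (0.11 and 0.20). XBP1 lay above by little, at 69.6 and 69.0 FPKM in shNT, 77.4 and 76.2 with shPcyt2-1, and 70.4 and 70.3 with shPcyt2-2. HSPA5 and XBP1 were no longer on one side with either correction, whereas CANX and PDIA6 were. HSP90B1, another chaperone of this compartment, was lower with shPcyt2-1 (77.3 and 75.8 FPKM, against 125 and 106 in shNT) and higher with shPcyt2-2 (175 and 154), a difference between the hairpins of 1.09 (adjusted p = 9.63e-05). CALR changed by 0.06 and -0.18, and CRELD2 by -0.04 and 0.08, neither of them called with either hairpin.

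Nucleoporins and importins, which form and use the nuclear pore, had 20 of 40 genes above and 1 below (median GC content 45.4%), with 19 and none after removal of the GC trend and 19 and 2 with median-ratio scaling. The list's median change was 0.23 and 0.16, and 7 genes rose. NUP160, of the outer ring of the pore, was at 7.71 and 7.89 FPKM in shNT, 12.4 and 11.1 with shPcyt2-1, and 11.7 and 10.5 with shPcyt2-2 (0.53 and 0.46, adjusted p = 0.00489 and 0.0176). The import adaptor KPNA3 went from 11.2 and 10.3 FPKM to between 13.4 and 16.3 (0.49 and 0.42). The gene below, the importin IPO4, was at 17.1 and 17.5 FPKM in shNT and between 12.3 and 17.03 with knockdown (-0.11 and -0.37, called with shPcyt2-2 only and without its side after the GC correction).

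Protein phosphatase 2A and its STRIPAK complexes, which dephosphorylate the Hippo kinases, had 11 of 22 genes above and 1 below (median GC content 43.3%), with 9 and none after removal of the GC trend and 9 and 1 with median-ratio scaling. PPP2R1B, the less abundant form of the scaffold subunit, was at 4.30 and 4.45 FPKM in shNT, 7.19 and 7.61 with shPcyt2-1, and 6.501 and 6.19 with shPcyt2-2. It rose by 0.64 and 0.45 (standard error 0.09, adjusted p = 0.00218 and 0.0169). PPP2R1A, the main form, was on neither side, at 62.9 and 67.1 FPKM in shNT, 72.9 and 76.0 with shPcyt2-1, and 58.1 and 59.2 with shPcyt2-2, and its hairpins differed by -0.34 (adjusted p = 0.00488). The STRIPAK members MOB4 (5.86 and 4.63 FPKM in shNT, 6.95 to 8.39 with knockdown) and STK26 (26.6 and 23.04, then 30.5 to 34.1) rose too, and SIKE1 (6.14 and 5.21, then 6.81 to 7.81) was called with neither hairpin. The change of STK26 was 0.33 and 0.37 as deposited and 0.17 with each hairpin after removal of the GC trend. That of MOB4 was 0.52 and 0.48, then 0.35 and 0.27. The proteasome had 20 of 47 genes above and 2 below (median GC content 47.3%), with 19 and 3 after removal of the GC trend and 14 and 5 with median-ratio scaling, but with shPcyt2-2 its median change was 0.06 and only 3 genes were called higher and 6 lower, against 23 and 1 with shPcyt2-1. In 20 of the 47 genes the hairpins differed, beside 31.6% of all genes. PSMD10 rose, from 32.0 and 28.1 FPKM to between 38.1 and 40.4 (0.37 and 0.38), while PSMC6 (0.36 and 0.34), PSME2 (0.34 and 0.32) and PSMD12 (0.38 and 0.28) did not pass with both.

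DNA replication genes were above shNT in 15 of 47 cases and below in 1 (median GC content 48.5%), in 13 and none after removal of the GC trend and in 10 and 3 with median-ratio scaling, with a median change of 0.26 with shPcyt2-1 and 0.10 with shPcyt2-2. Beside GINS1, RRM2, the regulated subunit of ribonucleotide reductase, was at 19.8 and 19.7 FPKM in shNT, 33.8 and 30.9 with shPcyt2-1, and 26.7 and 25.5 with shPcyt2-2. It rose by 0.68 and 0.39 and differed between the hairpins by -0.30 (adjusted p = 0.0165). The kinase CDK2 rose from 14.2 and 15.9 FPKM to between 18.9 and 22.4 (0.38 and 0.45), and the primase subunit PRIM2 changed by 0.61 and 0.30, called with shPcyt2-1 only. Among mitotic genes 12 of 44 lay above and 3 below (median GC content 45.5%), with 6 and 2 after removal of the GC trend and 8 and 6 with median-ratio scaling. The kinase AURKB went from 38.1 and 39.0 FPKM to 46.5 and 46.8 with shPcyt2-1 and 48.1 and 47.6 with shPcyt2-2, a rise of 0.27 and 0.30 with close replicates. The checkpoint kinase BUB1 rose by 0.29 and 0.33. CDK1 (0.40 and 0.35) and KIF23 (0.39 and 0.24) were called with shPcyt2-1 only, and CDK1 lost its side after the GC correction.

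The study looked to the Hippo pathway, in which the kinases STK3 and STK4 with SAV1 activate LATS1 and LATS2 with MOB1A and MOB1B, which hold back the coactivator YAP1. YAP1 acts through the DNA-binding factors TEAD1, TEAD2, TEAD3 and TEAD4. Of the 8 genes of this list with a mean of at least 5 FPKM, STK4, MOB1A, SAV1 and YAP1 lay above, the 4 TEAD genes lay on neither side and none lay below (median GC content 44.5%), and 3 lay above after removal of the GC trend, while with median-ratio scaling 4 lay above and 1 below. TEAD1 (0.34 and 0.13) and TEAD2 (0.38 and -0.02) were called higher with shPcyt2-1 only, TEAD4 (0.04 and -0.38) was called lower with shPcyt2-2 only, and TEAD3 (-0.09 and -0.30) was called with neither. The hairpins differed for TEAD2 (-0.40) and TEAD4 (-0.42). STK4 was at 16.04 and 14.1 FPKM in shNT, 18.2 in both libraries with shPcyt2-1, and 23.5 and 21.6 with shPcyt2-2 (0.26 and 0.55, adjusted p = 0.0508 and 0.00738). MOB1A was at 24.4 and 21.1 FPKM in shNT, 27.4 and 26.3 with shPcyt2-1, and 34.1 and 30.2 with shPcyt2-2 (0.23 and 0.48). YAP1 was at 25.8 and 25.5, then 28.4 and 28.1, and 36.5 and 30.7 (0.13 and 0.37). All 3 were called with shPcyt2-2 only, and only the difference between the hairpins for STK4 passed (0.29, adjusted p = 0.0321). SAV1 changed by 0.15 and 0.16, called with neither hairpin, and after removal of the GC trend its change was below 0 with both hairpins. YAP1 and SAV1 lost their side under that correction, while STK4 and MOB1A kept theirs and TEAD2 came to lie above. Of the genes with a mean below 5 FPKM, LATS1 and MOB1B lay above shNT, STK3 and LATS2 on neither side, and WWTR1, which encodes TAZ, below (3.36 and 3.45 FPKM, then 2.50 to 3.22). MOB1B was called higher with both hairpins (0.425 and 0.39, limma adjusted p = 0.0212 and 0.0483). LATS1 (0.40 and 0.27) was called higher with shPcyt2-1 only and LATS2 (-0.02 and 0.41) with shPcyt2-2 only, and STK3 and WWTR1 with neither. The hairpins differed for LATS2 (0.43, limma adjusted p = 0.0174).

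Targets of YAP1 and TAZ had none of 8 genes above and 2 below (median GC content 55.7%). After removal of the GC trend the counts were 1 and 1, and with median-ratio scaling none and 2. In 5 of the 8 the hairpins differed, beside 31.6% of all genes. IGFBP3, which binds insulin-like growth factors, was at 280 and 263 FPKM in shNT, 122 and 138 with shPcyt2-1, and 221 and 220.5 with shPcyt2-2. It fell by 1.06 and 0.30 (standard error 0.07, adjusted p = 0.000126 and 0.0286), and the difference between the hairpins was 0.77 (adjusted p = 0.000203). FJX1 changed by -0.19 and -0.26, called with neither in the values as deposited and with both under median-ratio scaling, and lost its side after the GC correction. CCN2, another target, had a mean of 2.38 FPKM and lay above shNT (1.65 and 1.46 FPKM, then 1.76 to 3.91), with changes of 0.85 and 0.21 that differed by -0.63 (adjusted p = 0.00562). Of the 13 genes of the insulin-like growth factor axis, none lay above and 3 below (median GC content 54.5%), with 1 and 3 after removal of the GC trend and none and 3 with median-ratio scaling. Next to IGFBP3 these were IGFBP1, which fell by 0.38 and 0.49 from 8.14 and 7.36 FPKM to between 4.63 and 6.09, and the mRNA-binding protein IGF2BP2 (-0.23 and -0.26), called with neither hairpin in the values as deposited and with both under either correction.

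Epithelial markers had 2 of 16 genes above and 1 below (median GC content 57.8%), with 3 and none after removal of the GC trend and 1 and 5 with median-ratio scaling. The tight junction gene CLDN1 rose from 27.0 and 25.9 FPKM to between 33.3 and 39.7 (0.50 and 0.40, adjusted p = 0.00409 and 0.018). E-cadherin, CDH1, lay above shNT by a margin smaller than the spread of its replicates, at 15.12 and 14.72 FPKM in shNT, 15.13 and 15.45 with shPcyt2-1, and 17.34 and 16.88 with shPcyt2-2 (0.03 and 0.19, called with neither), and with either correction it was on no side and its change with shPcyt2-1 was below 0. CLDN7 changed by -0.07 and -0.08, called with neither hairpin, and by more than 0 after removal of the GC trend. Of 6 mesenchymal markers none lay above and 2 below (median GC content 54.3%), as after either correction. Vimentin, VIM, was at 86.5 and 83.6 FPKM in shNT, 71.6 and 78.8 with shPcyt2-1, and 78.4 and 76.9 with shPcyt2-2 (-0.18 and -0.13, adjusted p = 0.0751 and 0.213). Under either correction VIM passed with shPcyt2-1 but not with shPcyt2-2. The other was S100A4, one of 5 of 10 genes of the S100 family of calcium-binding proteins that lay below, with none above (median GC content 53.8%, with 1 above and 4 below after removal of the GC trend and none and 5 with median-ratio scaling). Of the 10, 3 were called higher and 5 lower with shPcyt2-1, and 1 higher and 3 lower with shPcyt2-2. Of the same 10, 6 differed between the hairpins, beside 31.6% of all genes. S100A6 fell from 1254 and 1265 FPKM to 999 and 1050 with shPcyt2-1 and 924 and 1072 with shPcyt2-2 (-0.30 and -0.34, and -0.16 and -0.23 after removal of the GC trend). S100A2 fell from 62.2 and 56.1 to between 46.7 and 50.3 (-0.33 and -0.25). S100A14 and S100A4 did not pass with both.

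Focal adhesion and actin genes lay above in 15 of 52 cases and below in 4 (median GC content 52.0%), in as many after removal of the GC trend and in 9 and 7 with median-ratio scaling. With shPcyt2-1, 18 were called higher and 7 lower, with shPcyt2-2 10 higher and 11 lower, and 7 rose and 2 fell with both. In 22 of the 52 genes the hairpins differed, beside 31.6% of all genes. The actin-capping subunit CAPZA1 went from 34.4 and 28.3 FPKM to 47.3 and 47.6 with shPcyt2-1 and 48.9 and 44.3 with shPcyt2-2 (0.59 and 0.56, adjusted p = 0.00364 and 0.00942). ACTR2 and ACTR3, which form the core of the ARP2/3 complex that nucleates branched actin, rose by 0.44 and 0.36 and by 0.38 and 0.31. ACTR2 was at 60.8 and 54.3 FPKM in shNT and between 70.0 and 81.0 with knockdown. The tropomyosin TPM4 fell from 215 and 200.3 FPKM to between 162 and 174 (-0.29 and -0.34).

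In glycolysis and hypoxia 2 of 34 genes lay above and 4 below (median GC content 54.7%; 5 and 4 after removal of the GC trend, 1 and 7 with median-ratio scaling), less than the background above and near it below, and the 2 glucose transporters of the list went opposite ways. SLC2A1 was at 467 and 496 FPKM in shNT, 345 and 357 with shPcyt2-1, and 346 and 356 with shPcyt2-2. It fell by 0.46 and 0.45 (standard error 0.06, adjusted p = 0.00125 and 0.00314), with the 4 knockdown values close together. SLC2A3 was at 221 and 209 FPKM in shNT, 267 and 292 with shPcyt2-1, and 507 and 538 with shPcyt2-2. It rose by 0.37 and 1.28, and the hairpins differed by 0.90 (adjusted p = 6.75e-05). NDRG1, known to be induced by hypoxia, was at 102 and 95.3 FPKM in shNT, 50.0 and 58.9 with shPcyt2-1, and 66.6 and 84.1 with shPcyt2-2 (-0.85 and -0.40, adjusted p = 0.00179 and 0.051). ALDOA lay below, with 1 library far under the rest, at 406 and 386 FPKM in shNT, 309 and 147 with shPcyt2-1, and 317 and 364 with shPcyt2-2, and lost its side after the GC correction.

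Genes of intestinal identity had 2 of 11 above and 4 below (median GC content 57.7%), with 2 and 3 after removal of the GC trend and 1 and 6 with median-ratio scaling. Beside PHGR1, the nuclear receptor HNF4A, which maintains the intestinal and hepatic programme, fell from 31.9 and 36.1 FPKM to 24.8 and 25.02 with shPcyt2-1 and 25.4 in both libraries with shPcyt2-2 (-0.43 and -0.40, adjusted p = 0.005 and 0.0143). The secreted trefoil factor TFF3 fell from 73.7 and 75.6 FPKM to 54.0 and 55.9 and to 61.0 and 64.1 (-0.44 and -0.25, and -0.28 and -0.14 after removal of the GC trend). The Paneth cell defensin DEFA5 rose, from 19.3 and 22 FPKM to 33.6 and 27.4 with shPcyt2-1 and 48.9 and 37.7 with shPcyt2-2 (0.54 and 1.02, and a difference between the hairpins of 0.49 with adjusted p = 0.0255).

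In the RAS, RAF and ERK list 9 of 28 genes lay above and 3 below (median GC content 54.5%), with 12 and 2 after removal of the GC trend and 5 and 3 with median-ratio scaling. NRAS rose from 12.4 and 11.2 FPKM to 18.3 and 17.6 with shPcyt2-1 and 16.6 and 15.3 with shPcyt2-2 (0.57 and 0.41, adjusted p = 0.00278 and 0.0189). ETV4, an ETS factor induced by ERK, fell from 91.6 and 104 FPKM to between 70.5 and 77.4 (-0.34 and -0.45, and -0.21 and -0.34 after removal of the GC trend). SPRY2, a feedback inhibitor of the pathway, changed by 0.40 and 0.21 and was called with shPcyt2-1 only. PEBP1, an inhibitor of the ERK cascade that the study followed, was at 79.6 and 83.0 FPKM in shNT and between 88.2 and 90.5 with knockdown. Its change of 0.13 and 0.15 passed with neither hairpin (adjusted p = 0.116 and 0.121), but with the GC trend removed it passed with shPcyt2-2.

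The 5 most abundant separated genes on each side were ribosomal and cytoskeletal, with small changes. Of 81 cytosolic ribosomal proteins 7 lay above and 13 below (median GC content 50.2%), with 9 and 14 after removal of the GC trend and 3 and 18 with median-ratio scaling, and their reads may be shared with processed pseudogenes. RPS10 rose from 1231 and 1120 FPKM to between 1392 and 1460 (0.25 and 0.28), RPS12 from 1361 and 1210 to between 1488 and 1544 (0.25 and 0.23), and RPS26 from 94.9 and 88.5 to between 107 and 123 (0.39 and 0.28). RPL8 fell from 2135 and 2187 FPKM to between 1840 and 1932 (-0.19 and -0.20, and -0.05 and -0.09 after removal of the GC trend), while RPL13A, RPS2, RPL35, RPS9 and, above shNT, RPS21 and RPS3A did not pass with both. RPL13A, RPS2, RPL35 and RPS3A lost their side after the GC correction, and RPS21, RPS3A and ACTB with median-ratio scaling. RPL13A was the most abundant, at 5226 and 5161 FPKM in shNT and between 4470 and 4983 with knockdown. The actin gene ACTB changed by 0.22 and 0.15, called with shPcyt2-1 only, and TMSB10, which binds free actin, fell by 0.18 and 0.38. Zinc finger genes named ZNF, with a median GC content of 58.0%, lay above in 9 of 95 cases and below in 22, with 11 and 7 after removal of the GC trend and 5 and 35 with median-ratio scaling. ZNF146 rose from 35.6 and 30.8 FPKM to between 41.2 and 48.4, and ZNF593 (66.9 and 67.3, then 38.8 to 54.3), ZNF787 (58.3 and 70.2, then 46.3 to 51.3) and ZNF282 (18.4 and 21.1, then 14.1 to 15.2) fell. As deposited, these 3 falls were -0.35 and -0.71 (ZNF593), -0.39 with each hairpin (ZNF787), and -0.43 and -0.37 (ZNF282). After removal of the GC trend they were smaller, at -0.16 and -0.58, -0.185 and -0.25, and -0.24 and -0.23.

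Of the 7616 genes 150 were not protein coding, and of these 13 lay above and 24 below, beside 22.8% above and 10.9% below over all genes. Counts under the corrections are not given for this group. The snoRNA host gene SNHG16 rose from 42.7 and 37.4 FPKM to 51.2 and 70.9 with shPcyt2-1 and 63.6 and 65.0 with shPcyt2-2 (0.58 and 0.67, adjusted p = 0.0132 and 0.0153). PIK3CD-AS2 fell from 7.07 and 7.96 FPKM to between 3.96 and 5.50, and AC016876.1 from 7.66 and 8.38 to between 4.66 and 5.51. It is not stated that the counting used strand, so reads of an antisense gene and of its partner cannot be told apart.

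The sides differed by chromosome. On chromosome 19, whose 591 genes had a median GC content of 61.1%, 4.40% lay above and 25.04% below. On chromosome 18 (83 genes, 45.6%) the shares were 36.1% and 3.61%, and on chromosome 13 (122 genes, 43.6%) 28.7% and 1.64%. The highest share above was on chromosome 18 and the highest below on chromosome 19. The order of the shares was not that of GC content throughout, since chromosome 13 had the lowest median GC content and chromosomes 3 (48.3%), 6 (47.2%) and X (49.9%) had larger shares above (31.7%, 31.9% and 30.7%).

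The hairpins agreed in side by construction. In 395 of the 2569 genes (15.4%) the size differed between them at an adjusted p under 0.05 in limma. These were 242 of the genes above (13.9%) and 153 of those below (18.5%), beside 2409 of all 7616 genes (31.6%). The rule left out genes whose hairpins lay on opposite sides of shNT, so a share lower than that of all genes was partly set by it. The change was larger with shPcyt2-1 than with shPcyt2-2 in 1012 of 1740 genes above and 425 of 829 below. At the limit of 5 FPKM, the separated genes just inside were SHQ1, SAR1B and NR2C2 (means 5.01, 5.01 and 5.01) and those just outside WNT7A, RNF139 and E2F3 (means 4.997, 4.987 and 4.983).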

How the data were processed

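RNA-Seq of 6 libraries was used. The authors deposited 1 table per library with a value per Ensembl identifier, read as FPKM from the values (TPM over part of the genes could not be told apart) and listing only genes above 0. The submitters' notes name GRCh38, GRCm38 and mm10, and the aligner is not given in the sources used here. The tables were joined by identifier, with unlisted genes at 0. Identifiers repeated within a library (115) were summed, and 1143 groups with identical values were merged. Names, positions, length and GC content came from GENCODE release 29 (GRCh38). No mitochondrial protein-coding gene is listed.

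On log2(FPKM + 1), limma 3.58.1 in R 4.3.3 tested the 12755 genes that averaged 0.5 FPKM or more, with a trend of the variance on the mean, and p-values were adjusted over all of them by Benjamini-Hochberg. A fit with 3 groups gave each hairpin and their difference, a fit with 2 groups the pooled comparison. The study's methods name a count-based test, and FPKM are not counts, so limma took its place. The fits were tested on simulated data with independent noise and no GC gradient. Of shared changes of 0.25, 0.5 and 1 (log2), 8.96%, 79.1% and 98.5% were called there with both hairpins. The share of false calls in that simulation (0.8%) does not carry over to these libraries, which differ along GC content. No number of reads was recovered from low values. Named genes are PCYT2, genes the study named, the 15 largest each way by the smaller of the 2 hairpin changes, up to 4 per list, 5 non-coding and the most abundant 5 each way. Others, such as IPO4, CEPT1, SELENOI, the genes with the stress element and PPP2R1A, were chosen after their values were seen. Members and lists were chosen with earlier results of these data known, so no p is adjusted over a list. Some genes named by these rules are not reported here. Promoters came from RefSeq (GRCh38.p14). Figures were drawn with matplotlib 3.10.9.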

Additional observations from a re-analysis of the deposited data

Results flagged for a closer look

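In 3 of 157 genes screened, 1 of the 4 knockdown libraries stood apart from the other 3 by Dixon's criterion. Chance alone meets that criterion in about 1 in 20 single groups of this size, and the 3 flags are fewer than that rate would give. The 4 libraries are 2 hairpins with 2 libraries each and not a single group, so the rate need not hold here. The gap took 0.859 of the range for ATP11A and 0.86 for AGPAT2, both through replicate 2 of shPcyt2-2 (18.4 and 144 FPKM), and 0.88 for PDIA6 through replicate 1 of shPcyt2-2 (137 FPKM).

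The size of the change differed between the hairpins (shPcyt2-2 minus shPcyt2-1, log2) in 23 genes named with values. LATS2 and markers of the line are not counted among them. The test was the contrast of the 3-group fit in limma with Benjamini-Hochberg adjustment. The difference was positive for SLC2A3 (0.90, adjusted p = 6.75e-05), IGFBP3 (0.77), DEFA5 (0.49), NDRG1 (0.46), HSPA5 (0.31), STK4 (0.29) and RAB5B (0.26). It was negative for PPP1R14B (-0.47, adjusted p = 0.00121), POLR3GL (-0.41), ZNF593 (-0.37), RAB2B (-0.35), RRM2 (-0.30), PEMT (-0.30), ATP6V1B2 (-0.29), TMSB10 (-0.20) and, at a mean below 5 FPKM, CCN2 (-0.63). Of genes on neither side of shNT, it was 1.09 for HSP90B1 (adjusted p = 9.63e-05), -0.85 for SLC39A1, -0.42 for TEAD4, -0.40 for TEAD2, -0.34 for PPP2R1A, -0.28 for FTL and -0.24 for CALR. LATS2, at a mean below 5 FPKM and also on neither side, differed by 0.43 (adjusted p = 0.0174). In IGFBP3 and NDRG1 the change was larger with shPcyt2-1, and in SLC2A3 and DEFA5 the rise was larger with shPcyt2-2.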

How the results depend on the processing

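A pseudocount of 0.1, the highest of repeated rows, and limits of 1 and 10 FPKM on the mean kept the counts they were run on within 1.5 times. With no limit on the mean in the fit, 23 genes were called higher and 19 lower with both hairpins, 1316 with shPcyt2-1 and 109 with shPcyt2-2, and 252 separated genes differed between hairpins. Without a variance trend the calls with both were 173 and 60, and 674 with shPcyt2-2. Median-ratio scaling gave 1307 genes below shNT and 190.0 higher and 230.0 lower calls, and removal of the GC and length trend 85 lower calls. A change of at least 0.25 with each hairpin left 548 genes above and 184 below, and the mean of the hairpins called 1050.0 genes higher and 587 lower. Counting only genes on the same side as deposited and under each correction run separately left 995 genes above and 419 below. That rule was chosen after seeing the data, and for genes below only the GC correction could lower the count. Apart from the stricter rules, the cause was not tested.

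Leaving out 1 library gave between 1847 and 2611 genes above shNT and between 936 and 1722 below, between 16 and 474 called higher and between 19 and 263 lower with both hairpins, 831 to 2338 with shPcyt2-1, 95 to 1613 with shPcyt2-2, 0 to 1 pooled, and 132 to 474 that differed between hairpins. The arm left with 1 library was assumed to vary like the others. With a library left out, the rule for a side had fewer values to meet. The counts above and below shNT could therefore only stay or rise, and they do not show how stable the sides are. PCYT2 was called with both hairpins with the pseudocount of 0.1, with either correction and with the replicate number as a block. Without 1 library its changes were -0.84 to -0.62 with shPcyt2-1 and -0.99 to -0.76 with shPcyt2-2. Of 91 named genes called with both hairpins, 12 remained so without replicate 1 of shPcyt2-2, 30 without replicate 2 of shNT, 50 and 67 without replicates 1 and 2 of shPcyt2-1, 51 without replicate 2 of shPcyt2-2 and 81 without replicate 1 of shNT. With no limit on the mean in the fit 13 remained, without a variance trend 63, with median-ratio scaling 75, and with the GC and length trend removed 72.

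Calls gained with the GC and length trend removed were those of VIM, S100A4 and IGF2BP2 with shPcyt2-1 and of PEBP1, RPS21, ACTB, PIGS, PIGT and IGF2BP2 with shPcyt2-2, and with median-ratio scaling those of VIM, PFDN6, FJX1 and IGF2BP2 with shPcyt2-1 and of FJX1 and IGF2BP2 with shPcyt2-2. Calls with both hairpins that a correction removed are given above as counts and not by gene. Genes said to have risen or fallen were called so in the values as deposited. Changes that turned direction were called in no case. With the GC and length trend removed these were, for shPcyt2-1, CDH1 (-0.00132), SAV1 (-0.0329), CLDN7 (0.0396), CRELD2 (0.0959) and IPO4 (0.0172), and for shPcyt2-2, SAV1 (-0.0676), CLDN7 (0.0257), FTL (0.0704) and XBP1 (-0.0021). With median-ratio scaling they were CDH1 (-0.0422), HSPA5 (-0.00354) and CALR (-0.0192) for shPcyt2-1 and XBP1 (-0.0331) for shPcyt2-2. Leaving out 1 library gave FTL with shPcyt2-2 changes of -0.0788 to 0.0695, MT2A with shPcyt2-2 -0.262 to 0.114, MT1X -0.0815 to 0.262 with shPcyt2-1 and -0.473 to 0.152 with shPcyt2-2, and CRELD2 -0.152 to 0.0807 with shPcyt2-1 and -0.0386 to 0.194 with shPcyt2-2.

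Deviations of same-numbered libraries correlated at 0.0675, 0.072 and 0.264, so the numbers were not taken to pair them. With the replicate number as a block, 489 genes were called higher and 166 lower with both hairpins. Depth in reads is unknown, and 2 libraries per group limit the precision.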

Other observations

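A few genes known for roles in iron handling were looked at beside TFRC and SLC11A2. They were chosen after their values were seen and belong to no list above, so nothing is said of iron handling as a group. IREB2, the iron regulatory protein that binds iron-responsive elements in mRNAs of iron metabolism, was at 14.2 and 11.7 FPKM in shNT, 18.6 and 17.3 with shPcyt2-1, and 20.8 and 18.5 with shPcyt2-2, and rose by 0.45 and 0.57 (standard error 0.10, limma adjusted p = 0.0152 and 0.0127). No knockdown library overlapped shNT. FBXL5, the ubiquitin ligase subunit that degrades it when iron is plentiful, was at 4.46 and 4.01 FPKM in shNT and between 5.005 and 5.95 with knockdown (0.37 and 0.29, called with shPcyt2-1 only), and ACO1, the other iron regulatory protein, at 4.30 and 4.75, then 5.11 to 6.14 (0.35 and 0.16, called with shPcyt2-1 only). The ferritin heavy chain FTH1, which stores iron, lay below shNT, at 1694 and 1716 FPKM and then between 1530 and 1668 (-0.13 and -0.09), but was called with neither hairpin and lost its side after removal of the GC trend. The ferritin light chain FTL was on neither side (0.27 and -0.00).

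The same holds for a few genes that handle zinc. SLC39A10, which brings zinc into cells, rose from 9.54 and 7.56 FPKM to 12.03 and 12.8 with shPcyt2-1 and 14.5 and 12.6 with shPcyt2-2 (0.50 and 0.61, adjusted p = 0.0147 and 0.0143). SLC30A1, which exports it, rose from 6.64 and 5.98 to between 7.98 and 9.10 (0.43 and 0.38). SLC39A1 was called in opposite directions (0.33 and -0.52), and the metallothioneins MT1X (0.09 and -0.16) and MT2A (0.27 and -0.07) lay on neither side. These genes too were chosen after their values were seen.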
